A study of Triticum aestivum with 24 samples.

Results

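The subject is a set of 150 wheat probe sets chosen because their median signals were higher under drought than under irrigation in 2 drought-susceptible plant materials, and higher in well-watered flag leaves of the drought-tolerant cultivar C306 than in those of the susceptible cultivar WL711, with C306 medians that differed little between drought and irrigation. High is meant only relative to irrigated WL711, since many members were dim in C306 too, and not every member passed a test of these differences. The 150 members were chosen by their measured values from the 61115 probe sets of the array that were not controls or reporters. A probe set is a group of short probes on the array that together measure 1 transcript. For each, the signal was taken as log2(signal + 16) and the median of the 3 arrays of a group was used. A probe set could enter if its median in C306 under drought lay between 0.5 below and 0.5 above its median in irrigated C306. Its score was then the smallest of 3 differences, namely drought minus irrigated in WL711, drought minus irrigated in the susceptible bulk, and irrigated C306 minus irrigated WL711. The 150 with the highest scores are the members.

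A plant that meets drought raises the RNA of many protective and signalling genes, largely through the hormone abscisic acid and the transcription factors it acts on. Hydrophilic proteins such as dehydrins and other late embryogenesis abundant proteins, osmolyte-making enzymes, and inhibitors of proteases and cell wall enzymes are well known among the products. The flag leaf is the uppermost leaf of the wheat stem and supplies much of the sugar that fills the grain, so its water state at the reproductive stage matters for yield. Bread wheat carries several related subgenomes, and the short probes of an array of this kind may not separate the near-identical copies of a gene.

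The study measured flag leaves of bread wheat, Triticum aestivum, at the reproductive stage with the Affymetrix wheat array. The 4 materials were the drought-tolerant parent C306, the drought-susceptible parent WL711, and a tolerant and a susceptible bulk of recombinant inbred lines (RILs), each a pool of 10 lines, and each material was sampled under drought and under irrigation. This gave 8 groups of 3 arrays, 24 in all: C306 drought, C306 irrigated, WL711 drought, WL711 irrigated, tolerant bulk drought, tolerant bulk irrigated, susceptible bulk drought and susceptible bulk irrigated. The series calls the 3 replicates of a group biological, while nothing says whether they came from separate plants or plots, and a pooled bulk gives no value for single lines. How long and how severe the drought was is not stated there.

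The deposited signal is linear. Its mean after trimming lay between 500.091 and 500.113 on every array, which shows a scaling of the arrays by the submitters, while the median signal ran from 57.8 to 100.8. Arrays of one group correlated between 0.893 and 0.973 over the 36669 tested probe sets, which leave out the dimmest. The 5 leaf markers looked at were bright, from a mean signal of 7549 for FBP (chloroplast fructose bisphosphatase) to 72331 for rbcl, the large subunit of Rubisco. The 7 genes for grain storage proteins averaged between 5.30 and 99.1. The 9 hybridisation spike-in probe sets had mean log2 levels of 14.12, 12.67 and 13.63 on the C306 drought arrays, against 11.63 to 12.72 on the other arrays. In bulk leaf tissue, fewer cells that carry an RNA and less of that RNA in each cell cannot be told apart.

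The values that chose the members are given here as a description. The change under drought ran from 1.04 to 5.02 in WL711, with a median of 1.60, and from 1.03 to 7.99 in the susceptible bulk, with a median of 1.43, all on the log2(signal + 16) scale, which understates the change of dim probe sets. Irrigated C306 lay above irrigated WL711 by 1.03 to 5.42, with a median of 1.54. In C306 itself the drought change ran from -0.49 to 0.50, with a median of 0.15. The score, which had a median of 1.2, was set by the susceptible bulk in 60 members, by the difference between the parents in 52 and by WL711 in 38. The last members inside were Ta.8365.1.A1_at and Ta.23167.1.S1_x_at, with scores of 1.0294 and 1.0280, and the first probe sets outside were TaAffx.56609.1.S1_at and TaAffx.7332.1.S1_at, with 1.0259 and 1.0210.

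**Figure D1:**
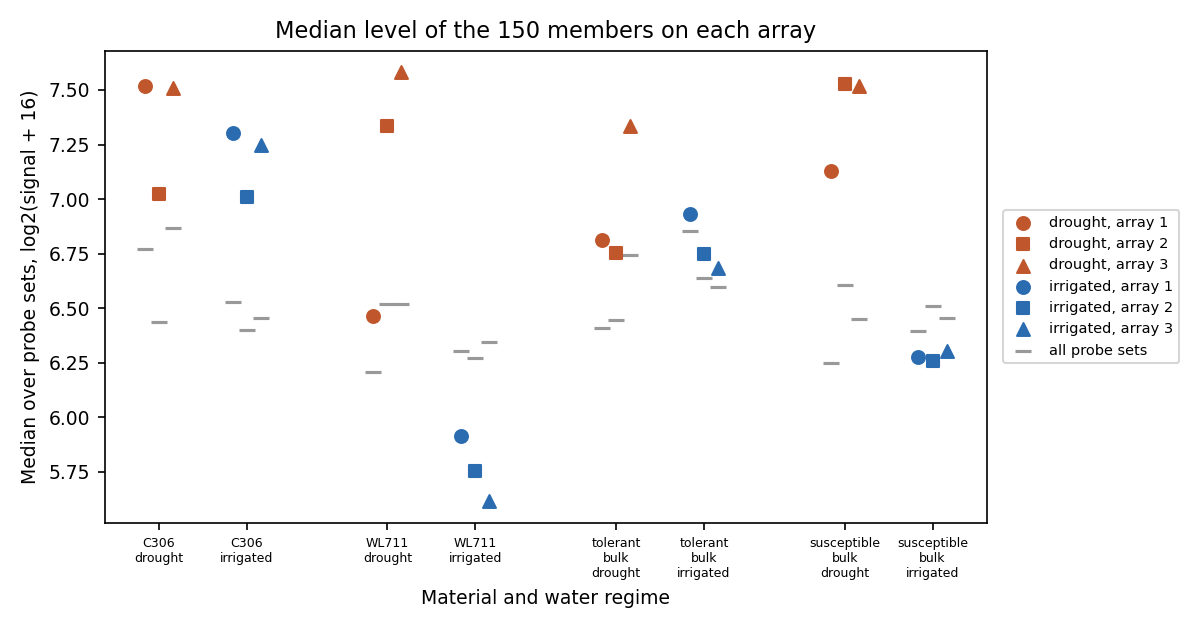
Median level of the 150 members on each array, as log2(signal + 16), with drought and irrigation side by side for each material; each symbol is 1 array and each grey bar the median of all probe sets on that array. WL711 irrigated arrays lie lowest, between 5.62 and 5.92, C306 arrays stand between 7.01 and 7.52 under both regimes, and WL711 drought array 1, at 6.47, is far below the other two of its group.

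In signal units the median member stood at 142.45 in C306 under drought and at 134.5 under irrigation. In WL711 the same median was 128.15 under drought and 23.8 under irrigation, and 85 of the 150 members had an irrigated WL711 signal at or under 39.1, the level below which probe sets were not tested. The tolerant bulk, whose arrays the rule did not use, had 102.8 under drought and 89.9 under irrigation, and the susceptible bulk had 151.75 under drought and 46.25 under irrigation. The median member thus lay at a moderate level in C306, where 19 members had an irrigated signal of 1000 or more and 68 had one under 100. In the plot of member medians by array, the 3 irrigated tolerant bulk arrays stood at 6.93, 6.75 and 6.68. The 3 irrigated susceptible bulk arrays stood lower, at 6.28, 6.26 and 6.31. Not every array kept the order of the groups, since WL711 drought array 1, at 6.47, lay below the irrigated tolerant bulk arrays.

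**Figure D2:**
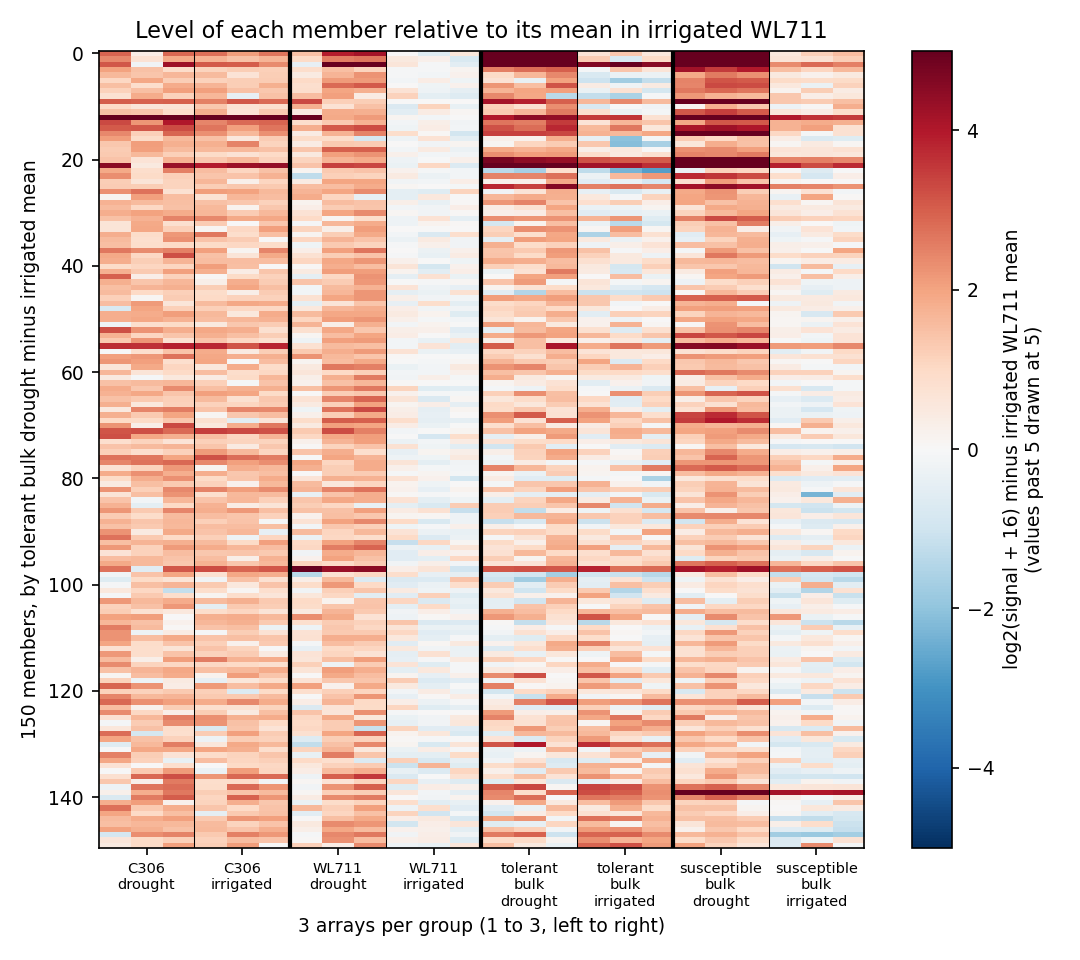
Level of each of the 150 members on each of the 24 arrays, as the log2(signal + 16) difference from its own mean in irrigated WL711; rows are members sorted by their change in the tolerant bulk, columns are arrays 1 to 3 of each group, and values past 5 are drawn at 5. Red prevails in the C306 columns under both regimes and in the WL711 and susceptible bulk drought columns, while the tolerant bulk columns are uneven from member to member. The rule asks for this only of the C306 and WL711 medians, so single arrays, such as WL711 drought array 1, need not follow. It compares the susceptible bulk under drought with its own irrigated level and not with WL711.

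The drought levels were set beside that of irrigated C306 as a description, since the rule asks WL711 under drought and C306 under irrigation each to exceed the same irrigated WL711 level and so brings them near each other. For 104 of the 150 members the WL711 drought median lay within 0.5 of the irrigated C306 median on the log2 scale, for 28 it lay more than 0.5 above and for 18 more than 0.5 below, with a median difference of 0.09, and 59.6% of all probe sets lay within 0.5. In the susceptible bulk under drought 86 members lay within 0.5 of irrigated C306, against 52.9% of all probe sets, 45 lay above and 19 below, and the highest exceeded it by 6.47. In the tolerant bulk under drought 54 lay within 0.5, against 49.5% of all probe sets, while 30 lay above and 66 below, with a median difference of -0.42. The irrigated tolerant bulk had 40 members within 0.5 of irrigated C306, against 44.3% of all probe sets, 16 above and 94 below, with a median difference of -0.71, and the irrigated susceptible bulk had 11 within 0.5, against 59.2% of all probe sets, 3 above and 136 below, with a median of -1.30. The irrigated C306 level enters the rule in all of these differences, through its excess over irrigated WL711, and the WL711 and susceptible bulk levels enter it as well.

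The drought change in the tolerant bulk is the one change under drought that the choice of members did not use. It was tested with limma, which fits all probe sets together and moderates each one's error, over the 36669 probe sets left after the 40% with the lowest mean level were left out; p-values were adjusted for all of them by the method of Benjamini and Hochberg, and a call needs an adjusted p under 0.05. Of the 150 members 116 were tested. The other 34 had mean signals of 18.1 to 38.2, and the median of their tolerant bulk changes, taken on group medians, was 0.17. There, 28 of the 116 tested members (24.1%, or 18.7% of all 150) were higher under drought than under irrigation, against 11.1% of all tested probe sets. Only 2 members (1.72%) were lower, against 7.6% of all tested probe sets, and 86 passed in neither direction. The median change was 0.43 over the tested members and 0.0007 over all tested probe sets, and it was above 0 in 78 members and below 0 in 38, where 50% of all tested probe sets lay above 0. The calls rest on 3 arrays against 3, and the median standard error of a member's change was 0.51.

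Signals of the separate arrays, which need no filter, gave a like count over all 150 members. Every tolerant bulk drought array stood above every irrigated one in 37 members (24.7%), against 11.2% of all probe sets. Every drought array stood below every irrigated one in 3 members (2.00%), against 14.0% of all probe sets. Of the 28 members called higher, 26 had groups that did not overlap, and both members called lower had. Their changes ran from 0.74 to 5.47 with a median of 1.61, 8 of them were 2 or more and 2 were under 1.

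Other features of the tolerant bulk arrays differed between drought and irrigation as well. The log2 ratio of the 3′ to the 5′ probe set of the elongation factor control, a sign of RNA length, was -1.36, 0.89 and 0.02 on the drought arrays and 2.80, 1.42 and 2.35 on the irrigated ones, which do not overlap. For the GAPDH control the ratio was -0.15, -1.36 and -1.28 under drought and -0.08, -0.65 and 1.21 under irrigation. For the actin control it was -1.35, 0.37 and 2.47 under drought and 1.25, -1.90 and 0.53 under irrigation, and the groups of both overlap. The summed signal of the 5 leaf markers was 127632 to 266589 on the drought arrays and 354694 to 396101 on the irrigated ones, with none of the 5 near 0. In the other 3 materials that sum was 165520 to 223978 under irrigation and 130703 to 244698 under drought. The irrigated tolerant bulk thus stood above every other group. The part of these in the members' change, or in the irrigated level of the tolerant bulk between the parents, was not tested.

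**Figure D3:**
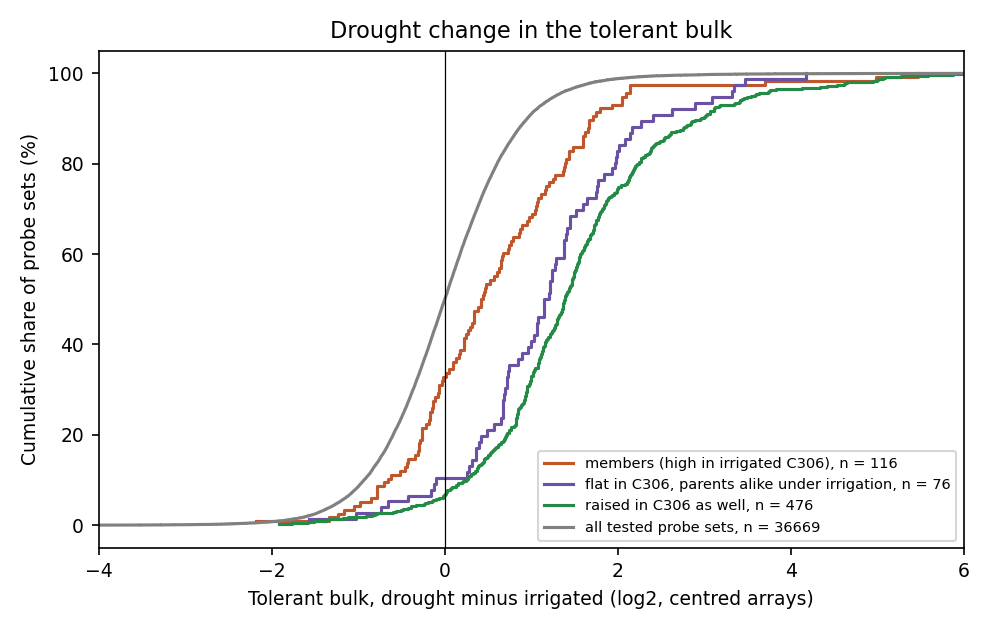
Cumulative share of probe sets, in percent, against the drought minus irrigated change in the tolerant bulk on the log2 scale, for the tested members, for the 2 comparison sets described in the text and for all tested probe sets. The curve of the 116 tested members (median 0.43) lies between that of all 36669 tested probe sets and those of the comparison sets (medians 1.18 and 1.39).

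For comparison, 2 other sets were taken from probe sets with higher medians under drought in the susceptible materials. The first held the 127 probe sets that met the same minimum difference in WL711 and in the susceptible bulk and the same narrow window in C306, but whose irrigated levels in the parents lay within 0.5 of each other. Of its 76 tested probe sets 41 (53.9%) were higher under drought in the tolerant bulk, with 0 lower and a median change of 1.18. The second set held the 564 probe sets whose medians were higher under drought by at least the lowest member score in C306, WL711 and the susceptible bulk alike. Of its 476 tested probe sets 313 (65.8%) were higher, with 0 lower and a median of 1.39. No probe set belongs to the members and to either set, and no test was made of these differences. The sets were not matched on the size of that difference, and the median fitted changes in WL711 and the susceptible bulk were 1.39 and 1.49 in the members, 1.07 and 1.56 in the first set, and 1.36 and 1.88 in the second.

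Across the tested members the tolerant bulk change followed the size of the other changes only loosely. The Spearman rank correlation over the 116 members was 0.28 with the change in the susceptible bulk and 0.25 with that in WL711, where it was 0.49 and 0.44 over all tested probe sets. These are correlations across genes on the same arrays, and genes are not independent replicates. The members also span a narrowed range, since the rule asks for a higher median under drought in both materials.

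Counts in the contrasts that the rule used are a description only. Among the 116 tested members 64 were called higher under drought in WL711, against 10.4% of all tested probe sets, and 74 in the susceptible bulk, against 12.7%. In irrigated C306 61 members were called higher than in irrigated WL711, against 8.26% of all tested probe sets. A total of 48 members passed all 3 of these tests, against 1.6% of all tested probe sets, and 28 passed none, against 78.0%. The WL711 count of 64 was 31 without drought array 3 and 34 without drought array 2.

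A member is flat in C306 by the rule, and the replicates set how firmly that can be said of any one of them. In limma 0 members were called changed under drought in C306, and 2 had an unadjusted p under 0.05, a count from which nothing is read because the rule asks for small changes. The fitted means of the 3 arrays, unlike the medians of the rule, put the C306 change between -1.35 and 0.95, within 0.5 of 0 in 92 of the 116 tested members, with standard errors from 0.19 to 0.94. In 28 members the C306 drought arrays lay more than 2 apart on the log2 scale, and the median range of the 3 was 1.10. The window of 0.5 on either side is thus narrower than the spread between replicates in many members, and not only in those 28.

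**Figure D4:**
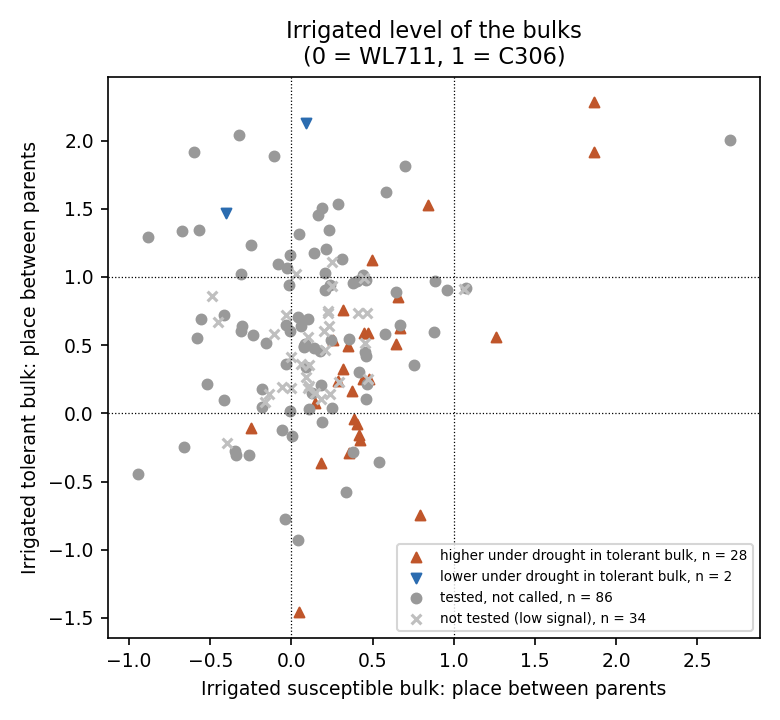
Place of the irrigated tolerant bulk (vertical axis) and the irrigated susceptible bulk (horizontal axis) between the irrigated parents for each of the 150 members, where 0 is the level of WL711 and 1 that of C306; symbols give the drought call in the tolerant bulk. The members spread widely along the vertical axis around a median of 0.56 and more narrowly along the horizontal axis around 0.18.

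Under irrigation the tolerant bulk lay about midway between the parents for the members. Its place, with WL711 at 0 and C306 at 1 on the log2 scale, had a median of 0.56 and quartiles of 0.18 and 0.94, and 83 members (55.3%) were nearer to C306. It lay above C306 in 32 members and below WL711 in 23. The susceptible bulk had a median place of 0.18 with quartiles of -0.03 and 0.42, 21 members (14.0%) were nearer to C306, 6 lay above C306 and 44 below WL711. The rule asks for a rise in the susceptible bulk, which favours a low irrigated level there, so that its place is not independent of the choice. Among 5425 other probe sets at least 1.03 higher in irrigated C306 than in irrigated WL711, a set chosen after the values were seen, the median place was 0.48 for the tolerant bulk and 0.49 for the susceptible bulk, with 49.2% and 48.7% nearer to C306.

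Taken by member, 65 were nearer to C306 in the tolerant bulk and nearer to WL711 in the susceptible bulk, 18 were nearer to C306 in both, 64 were nearer to WL711 in both, and 3 showed the reverse of the first pattern. Every irrigated tolerant bulk array stood above every irrigated susceptible bulk array in 32 members (21.3%), against 17.6% of all probe sets. The opposite held in 14 members (9.33%), against 14.0% of all probe sets. The susceptible bulk arrays enter both the rule and these counts. The 28 members that rose in the tolerant bulk had a median irrigated place there of 0.29, with 16 nearer to WL711, and the 86 not called had 0.60, with 34 nearer to WL711. The change and the place share the irrigated tolerant bulk arrays, so a low irrigated array raises the one and lowers the other, and no test was made.

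The array's names give little to read the members' functions from. The supplied platform annotation gives 1 gene to 1273 of the probe sets on the array (2.08%) and to 8 members (5.33%), which stand for 7 genes. Names in the TaAffx class made up 50.7% of members and 48.6% of all probe sets, and names ending in _x_at, which mark probes shared with other sequences, made up 12.0% and 11.1%. The members fall in 147 sequence clusters, 3 of them with 2 members. In 57 of these clusters the array carries 182 further probe sets, of which 137 were tested: 34 were higher and 6 lower under drought in the tolerant bulk, with a median change of 0.27, beside the 11.1% and 7.6% of all tested probe sets. Probe sets of one cluster may measure the same transcript or copies of it. The further probe sets are unevenly spread, and the single cluster TaAffx.128414 supplies many of them, with calls in both directions.

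**Figure D5:**
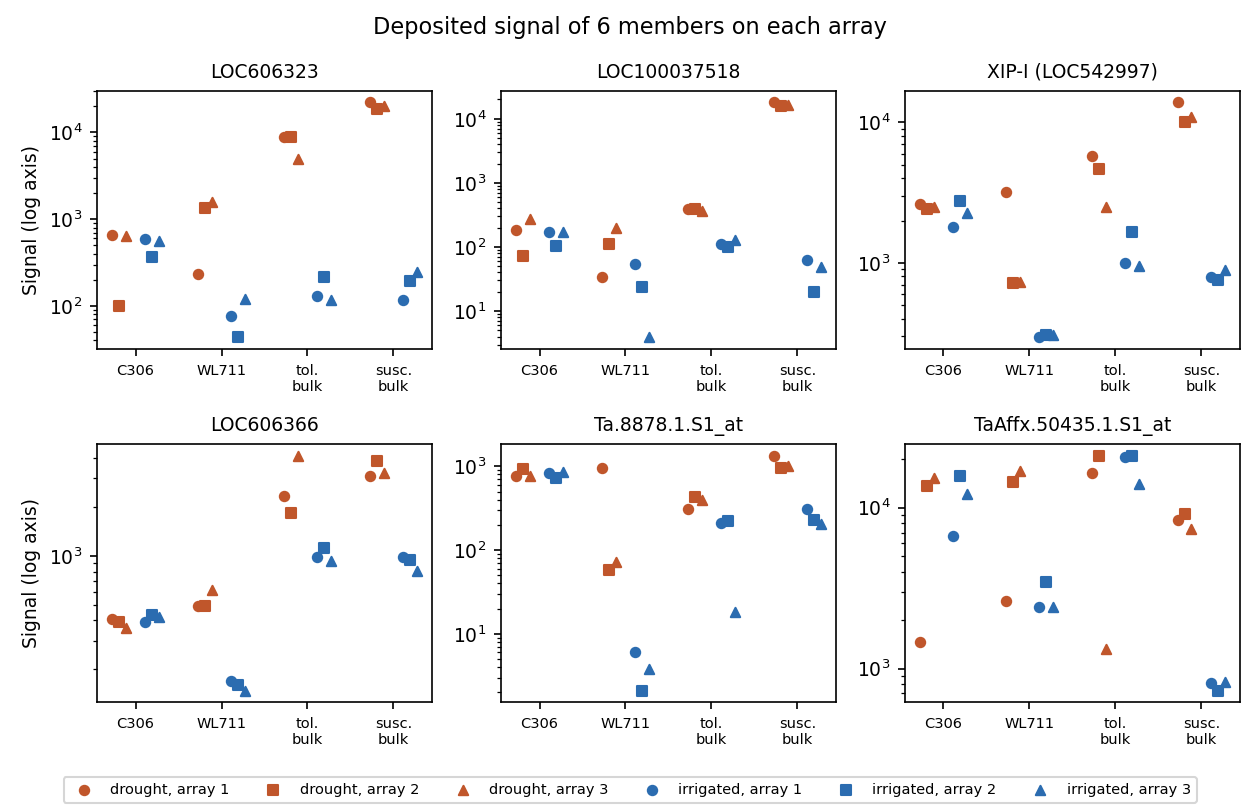
Deposited signal, on a log axis, of 6 members on each of the 24 arrays, with drought left of irrigation in each material; each symbol is 1 array. LOC606323 and LOC100037518 reach their highest signals in the susceptible bulk under drought (18659.9 to 22279.1 and 16038.6 to 18109.2), and TaAffx.50435.1.S1_at is low on array 1 of C306 drought and of WL711 drought and on array 3 of tolerant bulk drought.

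XIP-I (LOC542997), a xylanase inhibitor protein that blocks fungal enzymes which degrade the plant cell wall, is a named member with a known role. On the C306 arrays Ta.1200.1.S1_at read 2613.2, 2427.2 and 2499.5 under drought and 1798.3, 2734.6 and 2252.5 under irrigation. On the WL711 arrays it read 3176.8, 717.5 and 726.3 under drought, against 295.5, 309.0 and 307.4 under irrigation. The C306 groups overlap, and the WL711 groups do not, with drought array 1 far above the other two. The tolerant bulk read 5757.9, 4654.3 and 2493.7 under drought and 996.4, 1670.2 and 945.3 under irrigation. The susceptible bulk read 13902.0, 10011.7 and 10848.3 under drought and 794.2, 750.3 and 893.6 under irrigation. Both bulks were thus higher on every drought array, and both irrigated bulks lay between the irrigated parents. The tolerant bulk change was 1.79 ± 0.41 (SE, n = 3 arrays a group), a 3.46-fold rise, with an adjusted p of 0.00338 in limma. A second XIP-I probe set, Ta.1200.1.S1_x_at, is no member because its WL711 change was 0.69, and it rose by 1.69 ± 0.45 in the tolerant bulk (limma, adjusted p = 0.0107).

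The serpin gene SER1 (LOC100037548), whose product belongs to a family of protease inhibitors found in the wheat grain, was measured by Ta.1314.1.S1_s_at at low signals. C306 read 126.5, 53.0 and 81.5 under drought and 67.1, 26.3 and 74.5 under irrigation, and WL711 read 17.6, 89.5 and 72.3 under drought and 8.6, 22.3 and 34.4 under irrigation. Both pairs of groups overlap. The tolerant bulk read 25.9, 37.5 and 119.1 under drought and 191.2, 64.3 and 10.1 under irrigation, and the susceptible bulk read 97.0, 142.2 and 53.5 under drought and 35.4, 46.3 and 28.5 under irrigation. The tolerant bulk groups overlap widely and their difference was -0.17 ± 0.59 (SE, limma, adjusted p = 0.879), while the susceptible bulk groups do not overlap.

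A gamma-gliadin gene (LOC543214, also Gli-1), which codes for a storage protein of the grain, entered at signals too low to be tested. Ta.28632.1.A1_at read 12.4, 41.6 and 34.6 in C306 under drought and 29.8, 7.6 and 47.7 under irrigation, and 44.9, 14.1 and 27.2 in WL711 under drought and 7.5, 1.9 and 4.6 under irrigation. In the tolerant bulk it read 3.1, 38 and 36.1 under drought and 51.9, 8.0 and 2.9 under irrigation, and in the susceptible bulk 31.8, 49.9 and 16 under drought and 12.4, 1.2 and 3.7 under irrigation. Most of these values lie under the level at which probe sets were tested, and its 2 other probe sets are no members.

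LOC606323 had the third highest score of all members and the largest rise in the tolerant bulk; neither the annotation nor the gene table describes it, nor the next 3 genes. Ta.2690.1.S1_at read 658.5, 98.5 and 640.7 in C306 under drought and 591.8, 369.2 and 556.8 under irrigation. In WL711 it read 233.3, 1342.6 and 1590.6 under drought and 76.1, 43.5 and 119.1 under irrigation. One C306 drought array, array 2, lay far below all others of that parent. The tolerant bulk read 8754.9, 8796.7 and 4983.4 under drought and 129.9, 217.0 and 116.1 under irrigation. The susceptible bulk read 22279.1, 18659.9 and 20379.7 under drought and 115.7, 191.2 and 246.3 under irrigation. The drought levels of both bulks exceeded every array of C306, and the irrigated tolerant bulk sat nearer to WL711, at a place of 0.25. The rise in the tolerant bulk was 5.47 ± 0.55 (SE, n = 3), a 44.2-fold change, with an adjusted p of 2.81e-07 in limma.

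LOC100037518, measured by Ta.20434.1.S1_at, was the member with the largest change in the susceptible bulk. It read 183.6, 71.1 and 268.3 in C306 under drought and 170.4, 102.1 and 171.8 under irrigation, and 34.1, 111.3 and 195.1 in WL711 under drought and 54.2, 23.5 and 3.9 under irrigation. The C306 groups and the WL711 groups each overlap. The tolerant bulk read 389.2, 387.9 and 366.1 under drought and 111.7, 100.9 and 128.0 under irrigation, and the susceptible bulk read 18109.2, 16038.6 and 16470.3 under drought and 62.0, 19.5 and 48.7 under irrigation. The susceptible bulk under drought stood at a level no other group came near, and the tolerant bulk a little above C306. The tolerant bulk change was 1.62 ± 0.46 (SE, n = 3, limma, adjusted p = 0.0156); the adjusted p was 0.0505 without drought array 1 and 0.0702 with a pseudocount of 1.

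LOC606366 is the one gene with a pair of member probe sets. Ta.3828.3.A1_a_at read 406.5, 393.4 and 360.5 in C306 under drought and 392.1, 432.8 and 419.1 under irrigation, and 488.5, 493.1 and 616.6 in WL711 under drought and 169.6, 159.2 and 148.1 under irrigation. It read 2347.5, 1847.4 and 4147.4 in the tolerant bulk under drought and 987.3, 1117.0 and 931.5 under irrigation, and 3120.1, 3834.0 and 3218.6 in the susceptible bulk under drought and 986.0, 938.6 and 805.0 under irrigation. Both irrigated bulks stood above both irrigated parents, so the level of C306 was not the upper end for this gene. The tolerant bulk change was 1.36 ± 0.19 (SE, n = 3, limma, adjusted p = 2.49e-05). The other member, Ta.3828.3.A1_x_at, changed by 1.44 ± 0.23 there (limma, adjusted p = 0.000112), with 2971.2, 2472.3 and 2278.1 under drought and 991.4, 904.9 and 912.4 under irrigation. Both probe sets come from one sequence cluster and are not independent. Of the gene's 2 further probe sets, which are no members, Ta.24427.1.S1_at changed by 1.2 and Ta.3828.2.S1_x_at by 0.75, with limma adjusted p-values of 0.154 and 0.291.

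LOC542887, measured by Ta.25053.1.S1_at, had irrigated bulks above both irrigated parents as well. It read 16.3, 78.7 and 150.9 in C306 under drought and 47.2, 57.3 and 64.3 under irrigation, and 13.0, 46.4 and 47.5 in WL711 under drought and 25.1, 8.4 and 3.9 under irrigation. It read 133.1, 34.3 and 189.4 in the tolerant bulk under drought and 246.2, 205.7 and 119.9 under irrigation, and 1671.9, 1949.7 and 2026.0 in the susceptible bulk under drought and 468.2, 414.0 and 460.1 under irrigation. The irrigated places of the tolerant and the susceptible bulk were 2.01 and 2.70, beyond C306. The tolerant bulk change was -0.78 ± 0.49 (SE, n = 3, limma, adjusted p = 0.292), and the groups overlap.

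The 2 highest scores belong to probe sets without a gene name. TaAffx.27822.1.S1_at, with a score of 3.67, read 595.2, 21.9 and 517.7 in C306 under drought and 400.9, 503.8 and 544.7 under irrigation, and 56.3, 271.9 and 254.8 in WL711 under drought and 5.3, 39.0 and 0.7 under irrigation. It read 923.6, 1080.7 and 1528.1 in the tolerant bulk under drought and 472.5, 457.7 and 332.6 under irrigation, and 15920.8, 17073.6 and 18590.1 in the susceptible bulk under drought and 378.7, 244.6 and 340.2 under irrigation. Array 2 of C306 drought lay far below all other C306 arrays, as it did for LOC606323. Every tolerant bulk drought array was above every irrigated one, yet the change of 1.44 ± 0.64 (SE, n = 3) missed the threshold, with an adjusted p of 0.126 in limma. The error is pooled over all 24 arrays, those of C306 included, and fitted on the 6 tolerant bulk arrays alone the adjusted p was 0.00109.

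Ta.13337.2.S1_x_at, with a score of 3.09, showed the same low C306 array. It read 311.6, 17.7 and 719.0 in C306 under drought and 302.6, 296.7 and 184.4 under irrigation, and 13.2, 1425.7 and 1175.2 in WL711 under drought and 43.0, 20.6 and 10.4 under irrigation. It read 14928.6, 19249.2 and 8846.1 in the tolerant bulk under drought and 947.5, 1326.7 and 884.9 under irrigation, and 12435.4, 10702.7 and 11578.2 in the susceptible bulk under drought and 182.9, 261.3 and 207.4 under irrigation. The first WL711 drought array lay inside the irrigated range, the other two far above it. The tolerant bulk rise was 3.70 ± 0.94 (SE, n = 3), a 13.0-fold change, with an adjusted p of 0.00736 in limma. A further probe set of its cluster, Ta.13337.2.S1_at, has a score of 3.91. It is no member because its median in C306 was 1.18 higher under drought. Another one of the cluster, with a score of 4.46, was 1.62 higher there and is no member for the same reason. The fitted C306 changes of these were 0.27 and 0.72. Whether the transcript responds to drought in C306 was not tested.

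Further unnamed members rose strongly in the tolerant bulk. Ta.14033.1.S1_at read 1458.1, 1786.3 and 1347.2 there under drought and 66.9, 4.5 and 51.6 under irrigation, while its 6 C306 arrays lay at 167.8, 40.5 and 113.0 under drought and 98.1, 78.3 and 96.5 under irrigation. Its rise of 4.98 ± 0.48 (SE, n = 3, limma, adjusted p = 1.57e-07) took the tolerant bulk above every C306 array, and the susceptible bulk stood higher still, at 8734.0, 8079.7 and 8665.3 under drought and 38.4, 42.4 and 64 under irrigation. Ta.5059.1.S1_at read 648.4, 790.6 and 901.9 under drought and 90.8, 285.1 and 163.4 under irrigation in the tolerant bulk, a rise of 2.14 ± 0.32 (limma, adjusted p = 5.98e-05). Ta.6820.2.S1_a_at read 2611.9, 4338.6 and 7219.7 under drought and 782.0, 1074.1 and 1107.5 under irrigation there, a rise of 2.14 ± 0.30 (limma, adjusted p = 2.56e-05), and its C306 levels were 4146.7, 3502.8 and 4246.2 under drought and 4039.7, 2194.0 and 3151.2 under irrigation. Ta.9113.1.S1_at rose by 1.65 ± 0.44 (limma, adjusted p = 0.00934), with 248.4, 181.7 and 379.2 under drought and 72.5, 161.5 and 26.5 under irrigation, and its adjusted p was 0.0759 without irrigated array 3. Ta.8365.1.A1_at, 1 of the 2 members with the lowest scores, was among the brightest, with 15073.1, 17328.8 and 15429.6 in C306 under drought and 13575.7, 10314.7 and 13225.0 under irrigation. It read 5220.9, 5540.8 and 12294.7 in the tolerant bulk under drought and 2915.1, 3202.1 and 3358.2 under irrigation, a rise of 1.17 ± 0.28 (limma, adjusted p = 0.00471).

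A pair of members went the other way in the tolerant bulk. TaAffx.128414.137.S1_at read 313.6, 323.3 and 176.6 under drought and 863.5, 550.3 and 679.5 under irrigation, a change of -1.33 ± 0.43 (SE, n = 3, limma, adjusted p = 0.0302). In the susceptible bulk the same probe set read 319.7, 435.6 and 329.4 under drought and 89.4, 136.5 and 271.1 under irrigation, so the groups of both bulks are apart in opposite directions. TaAffx.122764.1.S1_at read 73.2, 28.4 and 9.1 under drought and 220.9, 269.7 and 120.4 under irrigation in the tolerant bulk, a change of -2.18 ± 0.73 (limma, adjusted p = 0.0392). The first call was lost without a filter (adjusted p = 0.063) and without irrigated array 1 (0.103) or 3 (0.0701) or drought array 3 (0.162). The second was lost with a pseudocount of 1, without a filter, with centring on all probe sets, without an intensity trend and without irrigated array 1 or 2 or drought array 2 or 3, at limma adjusted p-values from 0.0515 to 0.178. Ta.25201.3.S1_at read 113.6, 87.6 and 25.6 under drought and 179.5, 204.8 and 129.1 under irrigation, with a change of -1.16 ± 0.47 that missed the threshold (limma, adjusted p = 0.0911).

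In some members single arrays lay far from the others of their group. TaAffx.50435.1.S1_at, among the brightest, read 1458.0, 13674.2 and 15315.3 in C306 under drought and 6680.2, 15646.6 and 12114.4 under irrigation, and 2620.8, 14365.8 and 16855.4 in WL711 under drought and 2406.9, 3437.4 and 2419.7 under irrigation. It read 16455.3, 21062.8 and 1331.0 in the tolerant bulk under drought and 20720.6, 21013.5 and 13972.2 under irrigation, and 8354.8, 9182.5 and 7313.4 in the susceptible bulk under drought and 807.3, 730.2 and 825.0 under irrigation. Array 1 of C306 drought, array 1 of WL711 drought and array 3 of tolerant bulk drought were thus each far below the other two of their group. Its tolerant bulk change was -1.23 ± 0.82 (SE, limma, adjusted p = 0.325), and 0.14 without drought array 3. Ta.25992.1.S1_at (-0.79, and 0.18 without that array) and Ta.7298.2.S1_a_at (-0.78, and 0.35 without it) shared the 3 low arrays. In all, 5 members had each of these arrays more than 1 below both others of its group on the log2 scale, as had 18 of all tested probe sets, so the 5 are 3.33% of the members and 27.8% of the 18. TaAffx.97743.1.A1_at, of like brightness, was low on array 1 of both parents under drought, with 3158.6, 13220.3 and 16845.4 in C306 and 1476.8, 14193.2 and 20772.5 in WL711, and changed by -0.70 in the tolerant bulk (limma, adjusted p = 0.498).

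The first WL711 drought array stood apart from the other two for the members as a whole. It lay more than 1 below both on the log2 scale in 81 members (54.0%), against 10.2% of all tested probe sets, and was the lowest of the 3 in 117. The median over arrays, on which the rule rests, lets 1 low array through, so that this share is in part set by the rule. For the 117 no share over all probe sets was taken. That array also had the lowest median of its group over all probe sets, at 6.21 against 6.52 and 6.52 on the log2 scale. The count of members more than 1 below both others was 26 (17.3%) for array 1 of susceptible bulk drought, against 4.82% of all tested probe sets. For tolerant bulk drought array 3 it was 13 (8.67%), against 2.14%, while that array lay more than 1 above both others in 26 (17.3%), against 8.52%.

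How many members remain depends on the settings of the rule. Of 27 other settings, with another pseudocount, window, mean or scaling or with 1 array left out, 68 to 123 of the 150 members were kept, and 7 were kept in all 27. The 7 are Ta.8878.1.S1_at, Ta.22452.1.S1_at, Ta.21249.2.S1_at, TaAffx.29488.1.S1_at, Ta.22602.1.S1_a_at, Ta.7402.1.S1_at and TaAffx.57350.1.S1_at, none with a gene name. They are named here for this property, which was seen after the fact. A further 9 were kept in each of the 18 settings that leave out 1 array, among them XIP-I, LOC100037518 and both probe sets of LOC606366.

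Among these 7, Ta.8878.1.S1_at read 759.5, 926.2 and 771.9 in C306 under drought and 833.4, 722.3 and 846.6 under irrigation, and 943.0, 58.5 and 71.4 in WL711 under drought and 6.1, 2.1 and 3.8 under irrigation. It read 307.2, 427.6 and 400.7 in the tolerant bulk under drought and 211.0, 223.2 and 18.2 under irrigation, and 1347.3, 950.2 and 1018.7 in the susceptible bulk under drought and 307.0, 226.1 and 206.0 under irrigation. The 3 irrigated WL711 signals are the lowest of the 24. Its tolerant bulk groups do not overlap, and the change of 1.67 ± 0.67 missed the threshold (limma, adjusted p = 0.0826). Ta.21249.2.S1_at read 3382.8, 3646.1 and 3168.1 in C306 under drought and 2752.3, 3045.5 and 3156.0 under irrigation, and 1977.0, 4021.7 and 4387.3 in WL711 under drought and 1126.0, 868.8 and 855.1 under irrigation. The tolerant bulk read 1486.9, 1078.3 and 2421.9 under drought and 1099.1, 777.0 and 959.3 under irrigation, a rise of 0.74 ± 0.23 (limma, adjusted p = 0.0234) from an irrigated place of 0.08, close to WL711. Ta.7402.1.S1_at rose there by 1.60 ± 0.29 (limma, adjusted p = 0.00047), with 1690.8, 1547.2 and 1772.3 under drought and 559.0, 632.4 and 448.5 under irrigation. TaAffx.29488.1.S1_at rose by 2.05 ± 0.41 (limma, adjusted p = 0.00117), with 191.5, 234.6 and 251.3 under drought and 35.4, 94.2 and 19.0 under irrigation. The other 3 were not called, with changes of 0.42 for Ta.22452.1.S1_at, 0.66 for Ta.22602.1.S1_a_at and 0.89 for TaAffx.57350.1.S1_at.

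Gene lists of drought and leaf biology were matched on gene symbols and synonyms and counted on the brightest probe set of each gene in the tolerant bulk. They held 34 genes, of which 23 were tested and 3 had a member, and a list of transcription factors and abscisic acid signalling matched no annotated gene. Of the 23 tested genes 5 were called higher and 7 lower under drought in the tolerant bulk, against 11.1% and 7.6% of all tested probe sets. Of the 5 protease and xylanase inhibitor genes 2 were tested, both with a member, and XIP-I rose. The 7 grain storage genes had 2 tested and neither passed, and their summed signal was 182.7 to 462.6 on the tolerant bulk drought arrays and 262.0 to 312.2 on the irrigated ones. Of the 5 dehydrin and late embryogenesis genes 4 were tested and 2 rose, with a list median of 1.41, and none had a member. The 2 that rose met the rise and the parental difference of the rule but moved too much in C306: LEA1 (LOC543476), a late embryogenesis abundant protein, changed by 1.55 in C306 with a score of 3.26, and Rab15 (LOC543293), a dehydrin, by 0.64 with a score of 1.63. LEA1 rose by 5.59 ± 0.70 and Rab15 by 2.27 ± 0.46 in the tolerant bulk (limma, adjusted p = 4.91e-06 and 0.00128).

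The other lists held no member. Both genes for fructan exohydrolases, which release sugar from stored fructan, rose in the tolerant bulk, with a list median of 1.14. Of the 5 leaf markers 3 fell, with a list median of -0.84, in a bulk whose irrigated sum was high, as given above. Both tested genes of the lipid transfer and pathogenesis-related list fell, as did the 1 tested chaperone gene, FKBP70, and 1 of 2 antioxidant genes, the catalase CAT1. The single genes tested for choline synthesis, for transporters and for pollen proteins did not pass, with changes of -0.51, -0.12 and -0.34.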

How the data were processed

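Flag leaf RNA (8 ug of total RNA, TRIzol, biotin-labelled cRNA, per the labels' protocols) was measured on 24 Affymetrix wheat arrays. Per the submitters' processing notes the authors used GCOS 1.2, and the deposited intensity of each probe set is linear. Of 61290 probe sets, 175 controls and reporters were left out. Intensities were turned into log2(signal + 16); the 40% with the lowest mean (a signal of 39.1 or less) were not tested; the median over the tested probe sets, which ran from 7.84 to 8.22, was subtracted on each array. limma 3.58.1 in R 4.3.3 fitted 8 group means to all 24 arrays and an intensity trend (degrees of freedom 16 residual, 8.32 prior), two-sided, with Benjamini-Hochberg adjustment over the 36669 tested probe sets. Spread within a group, which sets the p-values, may be technical in part. Precision is limited by the 3 arrays a group. Detection calls were not used here.

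The members and lists were chosen with earlier results of these data known. Named were members with exactly 1 annotated gene, the 8 unnamed members with the highest scores, the 4 unnamed members that rose most and the 4 that fell most in the tolerant bulk, and the 2 probe sets on either side of the threshold. Gene names come from the platform annotation, with synonyms from the RefSeq gene table of assembly IWGSC CS RefSeq v2.1. No 2 arrays were identical. Alternatives covered the pseudocount, filter, centring, quantile normalization, trend, a replicate block, single arrays left out and the settings of the rule.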

Additional observations from a re-analysis of the deposited data

Results flagged for a closer look

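The change under drought went one way on every array of the tolerant bulk and the opposite way on every array of a susceptible material in 2 of the members named, both of them named for being among the 4 unnamed members with the largest falls in the tolerant bulk. Over all 150 members, every tolerant bulk drought array stood below every irrigated one in 3 (2.00%), against 14.0% of all probe sets. TaAffx.128414.137.S1_at had a tolerant bulk change of -1.33, with every drought array below every irrigated one, while every drought array of the susceptible bulk stood above every irrigated one. Ta.25201.3.S1_at had a tolerant bulk change of -1.16 with every drought array below every irrigated one, and in both WL711 and the susceptible bulk every drought array was above every irrigated one. WL711 read 40.1, 156.4 and 119.5 under drought and 35.8, 38.6 and 16.6 under irrigation for it, and the susceptible bulk read 36.0, 97.5 and 74.8 under drought and 14.1, 13.6 and 4.5 under irrigation. The difference between materials was not tested in either case, and the rule that chose the members fixes the direction in WL711 and the susceptible bulk.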

How the results depend on the processing

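The count of members higher under drought in the tolerant bulk was 28 and ran from 23 to 31 over all alternatives. The count lower was 2, and 1 with a pseudocount of 1, 0 with no filter on low values, 1 with centring on the median over all probe sets, 1 with no intensity trend, and 0 to 3 with 1 array left out. Centring on all probe sets moved the median of all tested tolerant bulk changes to 0.16 and the split of calls over all tested probe sets to 5230 higher and 1462 lower, against 4055 and 2786. The count called higher under drought in WL711 was 64 and ran from 31 to 82 with 1 array left out, at 31 without drought array 3 and 34 without drought array 2. Of the 150 members 68 were kept with a pseudocount of 1 in the rule, 76 with 64, 68 with means in place of medians, 82 with a window of 0.25, 79 with a window of 1, and 94 to 122 with 1 array left out, with 94 without C306 drought array 3 and 99 without array 2. In settings chosen after seeing the data, 97 were kept without C306 drought arrays 1 and 3, which had bright spike-ins, and 98 after quantile normalization. With a replicate block the tolerant bulk counts were 28 higher and 2 lower; same-numbered arrays there had deviations that correlated at -0.03, 0.05 and 0.01, so the numbers do not pair them. Of 352 results for single named members, 327 kept their direction and their side of the threshold, 15 lost the call, 5 gained it and 5 changed sign, none of the last called: the SER1 change ran from -0.92 to 0.53 with 1 tolerant bulk array left out (0.11 without drought array 1), and those of TaAffx.50435.1.S1_at, Ta.25992.1.S1_at and Ta.7298.2.S1_a_at from -2.01 to 0.14, -1.38 to 0.18 and -1.42 to 0.35, each highest without drought array 3. The causes were not tested. With 3 arrays a group and a median standard error of 0.51, 2 of the 28 calls were of changes under 1.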
